A study of Mus musculus with 28 samples.

Results

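Naïve CD4+ T cells of WT mice that had been activated through the T cell receptor with TGF-β plus IL-4 were compared with the same cells activated in medium without added cytokine, here called WT TGF-β + IL-4 and WT control. The comparison rests on 6 RNA-seq libraries, 3 per culture, out of the 28 libraries of the series, which holds 24 RNA-seq and 4 DNase-seq libraries. The study cultured CD4+ T cells of WT mice and of mice without the TGF-β receptor gene Tgfbr1 in medium, TGF-β, IL-4 or both, to learn how these cytokines drive T cells that make IL-9. By the study's methods the naïve CD4+ CD62L+ cells were taken from spleen and lymph nodes with magnetic beads and were stimulated with plate-bound anti-CD3 plus soluble anti-CD28. In the DNase-seq labels a WT mouse is an oil-treated one, and in the study's methods such mice are Tgfbr1 f/f Ert2-cre+ mice on a C57BL/6 background, which carry floxed Tgfbr1 and a Cre recombinase that tamoxifen activates, but received no tamoxifen. The RNA-seq labels say only WT, with the numbers 1 to 3. By the methods, young adult mice of both sexes were used; the sex behind each library and the culture time of the RNA-seq libraries are not given in the sources used here.

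TGF-β binds a pair of serine/threonine kinase receptors that phosphorylate Smad2 and Smad3, which enter the nucleus with Smad4, while IL-4 acts through a receptor with the IL-4Rα chain and phosphorylates STAT6. T cells that receive TGF-β alone are directed towards regulatory T cells, with the transcription factor FOXP3, and those that receive IL-4 alone towards Th2 cells, with GATA3. Both cytokines together give Th9 cells, named for IL-9, a growth factor for T cells and mast cells that is known for its part in allergy, defence against worms and antitumor immunity.

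The columns of the expression table had to be assigned before any comparison. The headings of the table conflict with the read counts that the study lists for 8 of the WT libraries: by which genes are at 0, all 8 libraries matched the column at their place in library-number order, with agreement of at least 99.85% of 1991 to 1996 genes, against at most 85.89% for the next column. Only 2 of these 8 columns carry the heading of their own library and 6 carry the heading of another. The columns were therefore taken by position in library-number order, as value columns 1, 5 and 9 for WT control and 4, 8 and 12 for WT TGF-β + IL-4. Of the 6 libraries, 4 are identified in this way, and the 2 of replicate 2 (columns 5 and 8) rest on order only. With the columns taken as headed, no gene was called in a test of 9780 genes and 61 had an unadjusted p under 0.05 in limma, so every call below depends on the assignment. Among the libraries identified by read counts alone, replicates 1 and 3 of each culture, 984 genes were called, and 842 of these were also among the 910 called with all 6, which is 85.6% of the former and 92.5% of the latter.

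Expression was measured as RPKM, the reads of a gene scaled by gene length and by how many reads mapped in total. The relative depth of the libraries, from the steps between low values, was between 1.26 and 1.43 for the control cultures and between 0.826 and 1.0 for those with both cytokines, with replicate 3 of the latter set to 1, so every control library was the deeper one. The total reads are unknown. Correlations of log2(RPKM + 1) were between 0.994 and 0.997 within a culture and between 0.978 and 0.983 across cultures. The libraries carried the defining genes of CD4+ T cells: Cd3e, a chain of the T cell receptor complex, lay between 221.1 and 236.2 RPKM in control and between 326.6 and 359.9 with both cytokines, and Cd4 lay between 93.8 and 98.3 and between 75.6 and 78.0. Markers of neutrophils, monocytes and macrophages were higher with the cytokines. The 15 such genes in the table summed to between 15.04 and 29.05 RPKM in control and between 104 and 156 with both cytokines. Of these, 9 reached the mean level for testing given below and 6 did not. Among the 9 tested, 6 were called higher. That level is a mean over both cultures, so a gene low in control, such as Elane, was tested only where the cytokine libraries were high. The 6 of 9 therefore cannot speak for the list. The calls of Camp and Fcgr3 were lost without replicate 1 of both cultures. Csf1r, Itgam, Emr1 and Cd14 stayed under 1 RPKM in all 6 libraries. In bulk RNA, more cells of a type and more RNA per cell cannot be told apart.

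A gene was tested when its mean over the 6 libraries reached 1 RPKM, and counted as called when limma gave a p under 0.01 after Benjamini-Hochberg adjustment and a change of more than 1.5-fold, both on log2(RPKM + 1). That scale understates the change of genes with low values. Differences below are those of log2(RPKM + 1), WT TGF-β + IL-4 minus WT control, with the standard error (SE) of the fit. Nothing in the labels says that replicates came from separate mice, so the p-values measure the spread between these libraries.

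With TGF-β plus IL-4, 631 of 9816 genes were called higher (6.43%) and 279 lower (2.84%), so 69.3% of the 910 called genes had risen. In all 910 the libraries of the cultures did not overlap, against 54.4% of all genes tested. The rises were the larger changes: 214 genes rose and 38 fell by more than 1, and 28 rose and 4 fell by more than 2. Over all genes tested the median difference was 0.025, and genes that rose had a lower level (median 6.81 RPKM) than genes that fell (17.7). Names of gene models without a gene name, or merged names, made up 51 of the called genes and are only counted.

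**Figure D1:**
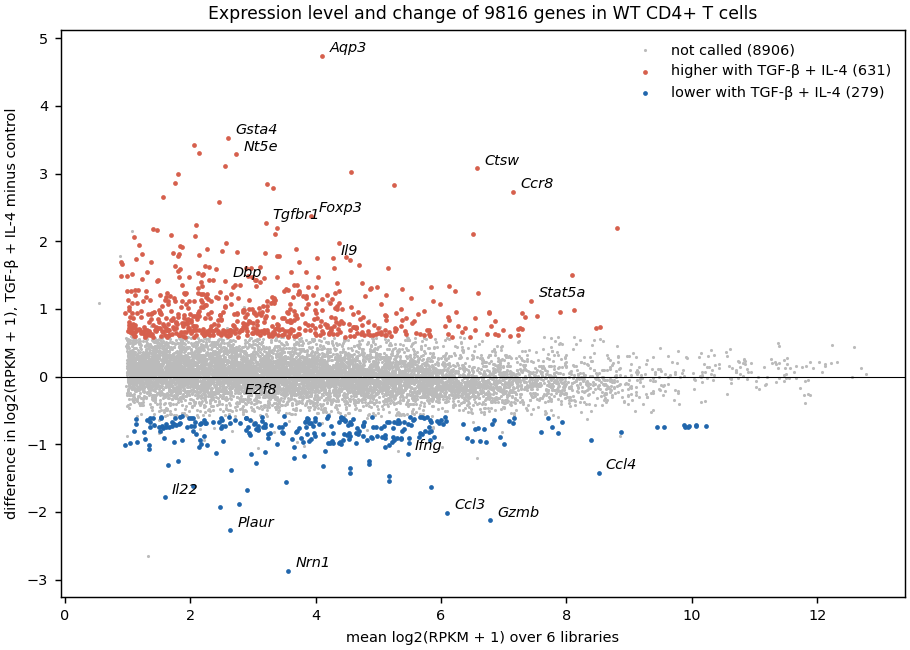
Each point is one of 9816 tested genes, placed by its mean log2(RPKM + 1) over the 6 libraries and by its difference (both cytokines minus control). The 631 genes called higher reach 4.74 (Aqp3), and the 279 called lower reach -2.87 (Nrn1).

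The gene that rose most was Aqp3, which encodes a water and glycerol channel of the cell membrane. It was at 2.6, 1.99 and 2.43 RPKM in control replicates 1 to 3 and at 88.6, 82.7 and 92.1 with TGF-β plus IL-4, a difference of 4.74 ± 0.079 (adjusted p = 4.4e-09) and a 37.5-fold ratio of mean RPKM. The cultures were far apart and no library stood out. In the cultures with a single cytokine, of which replicates 1 and 3 are identified, Aqp3 was at 96.5 and 98.5 RPKM with TGF-β and at 2.55 and 1.72 with IL-4. Gsta4, a glutathione transferase, was at 0.72, 0.82 and 0.85 RPKM in control and at 18.8, 20.9 and 19.3 with both cytokines (3.52 ± 0.073). In contrast to Aqp3 it stood at 6.16 and 7.0 RPKM with TGF-β and at 3.54 and 2.76 with IL-4, below its level with both. Fbxo2, which recognises glycoproteins for ubiquitination, was at 0.22, 0.35 and 0.28 RPKM in control and at 13.0, 12.7 and 12.4 with both (3.42 ± 0.073).

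Nt5e encodes CD73, an enzyme on the cell surface that makes adenosine from AMP. Its RPKM was 1.12, 1.04 and 1.25 in control and 18.3, 19.8 and 21.2 with both cytokines (3.28 ± 0.079, adjusted p = 1.48e-08). Itgae encodes CD103, the integrin chain that binds E-cadherin of epithelium, and went from 0.36, 0.21 and 0.2 RPKM to 7.0, 8.69 and 8.76 (2.86 ± 0.10). Ccr8, the receptor of the chemokine CCL1, was already well expressed in control, at 53.7, 50.9 and 58.1 RPKM, and reached 378.9, 370.1 and 348.3 (2.73 ± 0.059). With TGF-β alone Ccr8 was at 381.2 and 367.9 RPKM and with IL-4 alone at 124.8 and 152.6. Ctsw, a cathepsin of cytotoxic lymphocytes, went further than Ccr8 from a lower level, with 34.9, 31.8 and 29.0 RPKM in control and 281.7, 266.0 and 277.6 with both (3.07 ± 0.066).

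Id1, an inhibitor of basic helix-loop-helix transcription factors, rose from 3.14, 3.06 and 2.23 RPKM to 25.6, 25.5 and 24.1 (2.78 ± 0.098), while its relative Id3 fell, as given below. H2-DMa, a chain of the protein that loads peptides on class II molecules, rose from 13.3, 13.1 and 13.7 RPKM to 102.1, 93.8 and 107.0 (2.82 ± 0.058). It stood at 26.8 and 29.6 RPKM with TGF-β and at 31.1 and 20.2 with IL-4, below all libraries with both. The apolipoprotein L genes Apol9b and Apol9a, near-identical copies whose reads the counting could divide, were at 0.14 to 0.31 RPKM in control and at 6.06 to 9.6 with both cytokines (2.99 ± 0.088 and 2.66 ± 0.075).

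For the 4 remaining genes of the 15 largest rises, the libraries of a culture were less alike. Chil3, a chitinase-like protein known from macrophages, was at 0.16, 0.85 and 0.3 RPKM in control and at 16.4, 14.8 and 8.88 with both cytokines (3.31 ± 0.22), and Ccl17, a ligand of CCR4, at 0.81, 1.47 and 0.79 and at 21.4, 18.3 and 11.0 (3.11 ± 0.22). S100a8 and S100a9 encode the paired subunits of calprotectin, the abundant protein of neutrophils. S100a8 was at 3.2, 11.4 and 9.89 RPKM in control and at 79.3, 64.9 and 56.4 with both (3.02 ± 0.34), and S100a9 at 1.61, 2.4 and 3.72 and at 30.1, 23.2 and 19.7 (2.85 ± 0.21). S100a8 and S100a9 are members of the neutrophil, monocyte and macrophage list given above. The other 13 markers summed to 10.2, 15.2 and 14.01 RPKM in control and to 46.4, 36.7 and 27.7 with both cytokines, and the part of such cells in the result was not tested.

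The largest fall was that of Nrn1, which encodes neuritin, a small membrane-anchored protein. It was at 33.8, 29.4 and 29.9 RPKM in control and at 3.55, 2.99 and 3.59 with both cytokines, a difference of -2.87 ± 0.082 (adjusted p = 4.76e-08). Plaur, the urokinase receptor, went from 13.0, 11.3 and 13.9 RPKM to 1.81, 2.15 and 1.57 (-2.27 ± 0.10). Plk2, a polo-like kinase, went from 9.72, 9.56 and 10.3 to 1.73, 1.71 and 2.09 (-1.93 ± 0.079), and Arc, the activity-regulated cytoskeletal gene, from 5.66, 5.9 and 7.29 to 1.3, 1.37 and 1.42 (-1.62 ± 0.095). The cultures were far apart in each of these genes.

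The falls of Gzmb, Prf1, Ccl3, Ccl4, Il3 and Il22, also among the 15 largest, are given with their lists below. Slco4a1, an organic anion transporter, was between 17.9 and 20.3 RPKM in control and between 4.75 and 6.28 with both (-1.56 ± 0.10). Crtam, an adhesion molecule of cytotoxic T cells, went from between 59.7 and 61.6 RPKM to between 19.7 and 20.6 (-1.55 ± 0.047). Ifitm2 and Ifitm3, closely related genes of interferon-induced membrane proteins, were at 95.6 to 106.7 and 31.4 to 42.1 RPKM in control and at 31.3 to 32.3 and 11.3 to 15.8 with both (-1.63 ± 0.053 and -1.43 ± 0.13). Id3 was at 60.1, 61.3 and 56.0 RPKM in control and at 19.6, 20.8 and 21.9 with both (-1.47 ± 0.059), and stood between these levels with TGF-β (37.2 and 38.3) and with IL-4 (30.7 and 26.4).

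**Figure D2:**
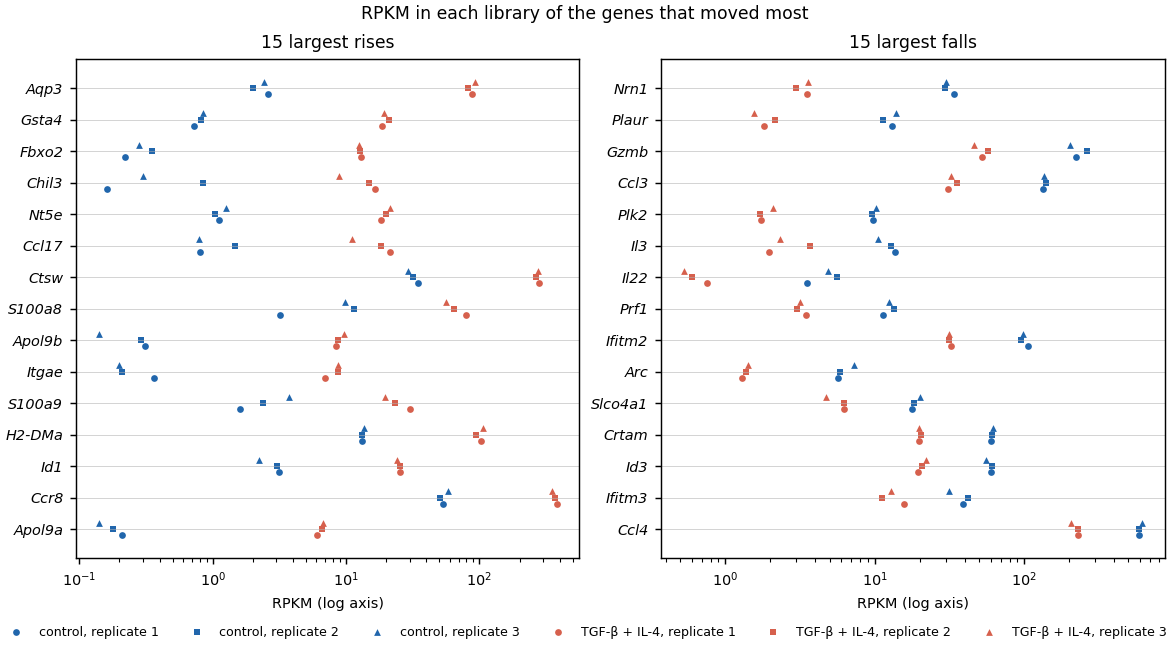
RPKM on a log axis for the 15 genes with the largest rise and the 15 with the largest fall, one marker per library, with the shape giving the replicate number. The libraries of WT control and WT TGF-β + IL-4 do not overlap in any of the 30 genes, and among the control libraries Chil3 (0.16 to 0.85 RPKM) and S100a8 (3.2 to 11.4 RPKM) are spread most widely.

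DNase-seq lists of the WT cultures gave a second readout at the starts of these genes. DNase I cuts accessible DNA, and a DNase I hypersensitive site (DHS) is a region in which the authors' peak caller found more cuts than in the surroundings. Each condition has 1 library, so the lists have no replicate check, and they differ in length, with 44298 DHSs for WT control against 33880 for WT TGF-β + IL-4. A start was found in the annotation for 9066 of the 9816 tested genes, and a DHS was counted when it lay within 1000 bp of it. Of 601 genes that rose, 13 (2.16%, Wilson 95% interval 1.27 to 3.67) had a DHS in the WT TGF-β + IL-4 list only and 21 (3.49%, 2.3 to 5.28) in the WT control list only. Of 259 genes that fell, 3 (1.16%, 0.395 to 3.35) had one in the WT TGF-β + IL-4 list only and 20 (7.72%, 5.05 to 11.6) in the WT control list only. Among the 8206 genes not called the shares were 0.634% (52 genes) and 1.91% (157 genes). No DHS lay at the start in either list for 113 genes that rose (18.8%), 70 that fell (27.0%) and 784 not called (9.55%). Most genes therefore had a start DHS in both lists, 454 of those that rose and 166 of those that fell. The intervals cover counting error only.

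**Figure D3:**
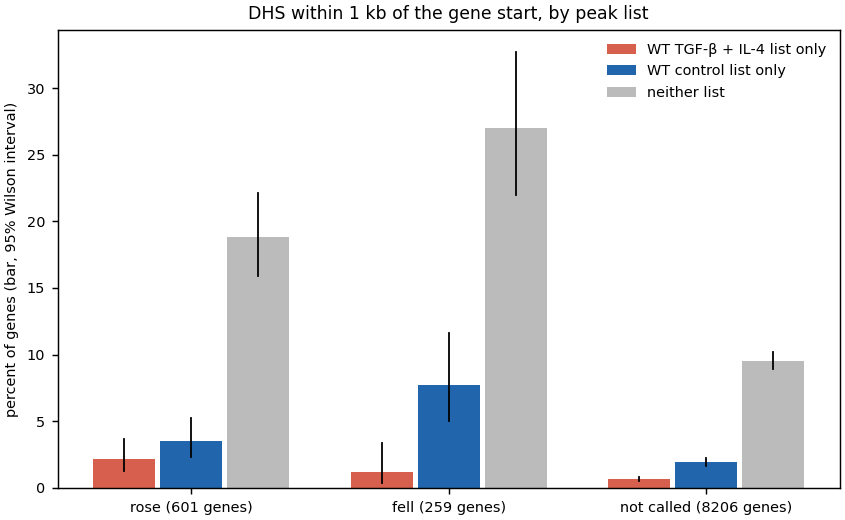
Percent of genes whose start has a DHS within 1 kb in the WT TGF-β + IL-4 list only, the WT control list only or neither, for genes that rose, fell or were not called, with 95% Wilson intervals as lines. Genes that fell have the highest share in the WT control list only (7.72%).

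Of the 30 genes with the largest changes, Chil3 had no matched start in the annotation and could not be looked up. Among the others, 6 had a start DHS in one list only, and in each of these 6 it was in the list of the culture with the higher RPKM. Aqp3 and Nt5e had theirs in the WT TGF-β + IL-4 list, at 5.21-fold and 3.25-fold enrichment over the local background, and Nrn1, Plaur, Ifitm2 and Ccl4 in the WT control list, at 2.93-fold, 3.12-fold, 3.63-fold and 4.94-fold. Other called genes went the opposite way, with a start DHS in the WT control list only at Ccr6 and Npas2, which rose, and in the WT TGF-β + IL-4 list only at Tnfsf8, which fell. The sequence around 5 of these 6 summits is shown, as the stretches where a DHS and the higher RPKM of a gene that moved most were listed in the same culture. That of Nt5e overlaps a UTR and is not shown. Each is the mm9 sequence of 100 bp on either side of the summit, written 5′ to 3′ on the strand of the gene. Capitals mark matches, on either strand, to the Smad motif CAGAC or the RUNX motif TGTGGT; the AP-1 motif TGANTCA, the STAT5 motif TTCNNNGAA and the STAT6 motif (TTC and GAA with 4 bases between) were searched too and have no match in them. The Aqp3 window, on the minus strand at chr4:41044237-41044437, is centred in an intron of Aqp3 879 bp into the gene. The Nrn1 window (minus strand, chr13:36827161-36827361) is intergenic and centred 915 bp before the start, the Plaur window (plus strand, chr7:25246488-25246688) is intergenic and centred 931 bp before the start, the Ifitm2 window (minus strand, chr7:148141311-148141511) is centred in an intron of Ifitm2 471 bp into the gene, and the Ccl4 window (plus strand, chr11:83475804-83476004) is intergenic and centred 182 bp before the start.
Aqp3: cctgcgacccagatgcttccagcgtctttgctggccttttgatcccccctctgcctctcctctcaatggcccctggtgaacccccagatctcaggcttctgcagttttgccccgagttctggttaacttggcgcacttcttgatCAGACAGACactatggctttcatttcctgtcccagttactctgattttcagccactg
Nrn1: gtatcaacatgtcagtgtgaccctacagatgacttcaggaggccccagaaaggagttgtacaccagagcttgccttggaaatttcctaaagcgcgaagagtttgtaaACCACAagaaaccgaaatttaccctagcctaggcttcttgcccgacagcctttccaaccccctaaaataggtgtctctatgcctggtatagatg
Plaur: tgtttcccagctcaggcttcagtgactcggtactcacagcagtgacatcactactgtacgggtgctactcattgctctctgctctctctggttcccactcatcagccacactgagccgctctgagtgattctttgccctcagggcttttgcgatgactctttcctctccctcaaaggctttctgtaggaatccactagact
Ifitm2: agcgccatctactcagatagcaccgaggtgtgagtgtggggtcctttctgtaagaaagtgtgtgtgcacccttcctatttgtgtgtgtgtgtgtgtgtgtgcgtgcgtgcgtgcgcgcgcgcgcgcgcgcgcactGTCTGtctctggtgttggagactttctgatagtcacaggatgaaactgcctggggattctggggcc
Ccl4: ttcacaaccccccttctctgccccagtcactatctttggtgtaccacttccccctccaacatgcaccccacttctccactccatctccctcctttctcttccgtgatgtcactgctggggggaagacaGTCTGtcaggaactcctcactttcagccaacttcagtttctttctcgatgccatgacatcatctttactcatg

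The Aqp3 window holds the Smad motif 2 times, in matches that overlap by 1 base. The Ifitm2 and Ccl4 windows hold it 1 time each, the Nrn1 window holds the RUNX motif 1 time, and the Plaur window holds none of the 5 motifs. Short motifs of this kind are common: of all windows of 201 bp around summits, 41.8% in the WT TGF-β + IL-4 list and 40.3% in the WT control list hold CAGAC, and 19.8% and 20.6% hold TGTGGT. In the same order, the AP-1 motif is in 10.7% and 16.5% of the windows, the STAT5 motif in 7.0% and 7.3%, and the STAT6 motif in 5.99% and 5.22%. These are matches of letters, and no binding was measured.

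The genes that the study is about were Il9, Tgfbr1, Stat5a, Dbp and E2f8. Il9, at chr13:56580638-56583607 on the minus strand of mm9, was at 9.93, 10.9 and 8.15 RPKM in control and at 36.1, 33.6 and 34.05 with both cytokines, a difference of 1.75 ± 0.092 (adjusted p = 1.52e-06) and a 3.58-fold ratio of means. The cultures did not overlap. With TGF-β alone Il9 was at 45.9 and 40.1 RPKM, above all 3 libraries with both cytokines, and with IL-4 alone at 13.0 and 17.4. No DHS lay within 1000 bp of the Il9 start in either list. Tgfbr1, the type I receptor of TGF-β, was at 3.02, 3.25 and 3.31 RPKM in control and at 17.6, 19.5 and 20.7 with both (2.27 ± 0.076), and reached 13.9 and 14.5 with TGF-β alone.

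Stat5a encodes a transcription factor activated by IL-2 family cytokines. It was at 114.0, 125.0 and 111.7 RPKM in control and at 248.4, 261.7 and 255.4 with both (1.12 ± 0.054), and lay between those levels with TGF-β (171.2 and 147.0) and with IL-4 (145.9 and 150.9). Dbp, a PAR bZIP factor of the circadian clock, was at 2.63, 2.97 and 2.29 RPKM in control, at 8.01, 8.25 and 9.72 with both (1.41 ± 0.098), at 4.97 and 6.62 with TGF-β and at 2.34 and 2.14 with IL-4. The starts of Tgfbr1, Stat5a and Dbp had a DHS in both lists. E2f8, an E2F family repressor, was at 6.66, 6.36 and 6.37 RPKM in control and at 5.01, 5.51 and 4.62 with both, without overlap, but with a difference of -0.30 ± 0.076 and an adjusted p = 0.0106 it was not called. It was at 7.59 and 6.1 RPKM with TGF-β and at 7.29 and 8.99 with IL-4.

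**Figure D4:**
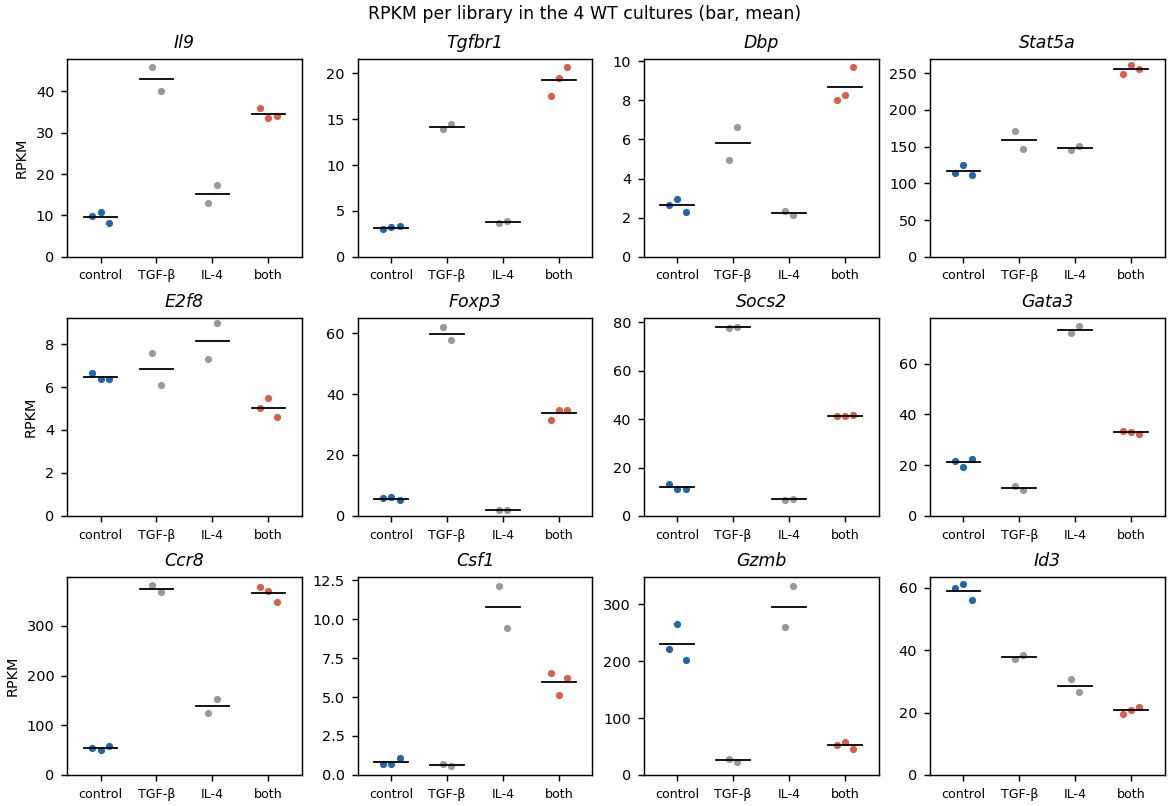
RPKM per library (points) and mean (horizontal lines) of 12 genes in WT control, TGF-β alone, IL-4 alone and both cytokines, with 3 libraries for control and both and the 2 identified libraries for each single cytokine. Il9 reaches 45.9 with TGF-β alone against 36.1 with both, and Stat5a is highest with both.

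The counts for the gene lists that follow stand against 6.43% of all tested genes called higher and 2.84% called lower. The level for testing is a mean over both cultures. A gene low in 1 culture was therefore tested only where the other was high, so counts and medians hold for tested members only. Of 18 tested genes of receptors, Smads and feedback, 10 were called higher (55.6%) and 0 lower, with a median difference of 0.95 against 0.025 over all genes tested. Itgae, Smad7 and Ldlrad4, called higher, and Eng, not called, had control means of 0.255, 0.614, 0.988 and 0.703 RPKM. These genes were tested only through the libraries with both cytokines. The 10 of 18 and the median therefore cannot speak for the whole list of 27. Beside Tgfbr1 and Itgae, the type II receptor Tgfbr2 went from 10.1, 10.5 and 9.47 RPKM to 20.4, 22.6 and 24.1 (1.08 ± 0.073). Several feedback inhibitors of the pathway were among the members that rose: Smad7 from a mean of 0.614 to 2.10 RPKM (0.94 ± 0.084), Ski, a Smad corepressor, from 3.53 to 11.7 (1.49 ± 0.086), its relative Skil from 5.36 to 11.3 (0.95 ± 0.10), and the receptor-Smad interaction inhibitors Pmepa1 from 2.42 to 6.44 (1.12 ± 0.093) and Ldlrad4 from 0.988 to 8.31 (2.24 ± 0.11). Other inhibitors were not called: Tgif1 and Tgif2 overlapped between the cultures (0.14 ± 0.074 and 0.09 ± 0.059). Smad6, Bambi, Smurf1 and Smurf2 were below the level tested. Furin, the protease that matures the TGF-β precursor, and Lrrc32, which holds latent TGF-β on the cell surface, rose as well (0.97 ± 0.048 and 1.23 ± 0.078). The Smads that carry the signal were not called. Smad2 was at 5.91, 6.31 and 6.39 RPKM in control and at 7.38, 7.48 and 7.83 with both (0.25 ± 0.066). Smad3 was at 3.31, 3.75 and 3.06 and at 4.41, 5.2 and 5.24 (0.44 ± 0.090). Neither overlapped between the cultures, and Smad3 passed the p threshold in limma (adjusted p = 0.00393) but not the fold threshold. Smad4, at 1.56, 1.13 and 1.9 and at 1.55, 1.39 and 1.42, overlapped. In all 10 called genes the mean with both cytokines lay closer to each library with TGF-β alone than to either library with IL-4 alone, for example Ski at 7.94 and 8.21 RPKM with TGF-β and at 3.92 and 3.75 with IL-4.

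Of 20 tested genes of IL-4 signalling and type 2 immunity, 9 were called higher (45.0%) and 1 lower (5.0%), with a median of 0.58. The receptor chain Il4ra rose from 48.0, 52.1 and 50.1 RPKM to 89.7, 93.1 and 95.7 (0.88 ± 0.050). The cytokine signalling inhibitors Socs1, Socs2 and Cish rose too, Socs2 most, from 13.4, 11.0 and 11.2 to 41.2, 41.2 and 41.6 RPKM (1.73 ± 0.074), although it stood at 6.73 and 7.02 with IL-4 alone and at 77.6 and 78.2 with TGF-β alone. Ccr4, the receptor of CCL17 and CCL22, rose from 10.7, 12.2 and 10.6 RPKM to 38.6, 41.7 and 40.5 (1.76 ± 0.067), and Maf, a regulator of Il4, from a mean of 0.426 to 1.90 (1.02 ± 0.087). Maf stood at 0.42 and 0.47 RPKM with IL-4 alone and at 2.23 and 2.81 with TGF-β alone. Of the members called higher, Maf, Socs2, Il9 and Ccr8 were higher with TGF-β alone than with IL-4 alone. The others, Il4ra, Socs1, Cish, Ccr4 and Gata3, were higher with IL-4 alone. Gata3, the Th2 master regulator, was at 21.7, 19.3 and 22.5 RPKM in control and at 33.6, 33.0 and 32.3 with both (0.62 ± 0.063), against 72.3 and 74.8 with IL-4 alone and 11.8 and 10.2 with TGF-β alone. Its call lies at the edge of the fold threshold and was lost without control replicate 2 (0.56), also where replicate 2 of both cultures was left out. Gfi1, a repressor induced by IL-4, fell (-0.71 ± 0.10), a call lost without replicate 1 or replicate 3 of both cultures (-0.69 and -0.58). The Th2 cytokines were low throughout: Il4 was at 0.82, 1.52 and 1.24 RPKM in control and at 1.02, 2.82 and 1.41 with both, while Il5 and Il13 stayed under 1 RPKM and were not tested.

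Of 28 tested transcription factors listed for Th9 cells, 9 were called higher and 2 lower (median 0.33). The list holds Dbp, Stat5a and E2f8, which the study picked out in part from this RNA-seq. The calls of Dbp and Stat5a are therefore not independent of the list. Irf4, needed for several T helper types, was at 63.2, 67.9 and 60.9 RPKM in control and at 98.5, 111.9 and 108.1 with both (0.72 ± 0.062). Stat5b rose about as far as Stat5a, from 40.9, 43.5 and 42.7 to 87.0, 92.6 and 91.8 (1.08 ± 0.049), and Foxo1, Bcl6 and Nfatc2 rose by 0.99 ± 0.11, 0.91 ± 0.073 and 0.88 ± 0.10. The members that fell were Id3 and Eomes, a T-box factor of cytotoxic cells, which went from 4.49, 3.26 and 5.63 RPKM to 1.02, 1.49 and 1.31 (-1.25 ± 0.15). Batf, a partner of IRF4, was at 75.4, 85.6 and 78.1 RPKM in control and at 85.0, 87.5 and 80.7 with both, with overlap of the cultures, and Spi1, which encodes PU.1, at 2.74, 3.01 and 1.45 and at 4.55, 3.19 and 2.7. Neither was called.

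Among genes of Th1 cells and of cytotoxicity most of those called fell, with 3 of 21 tested called higher and 9 lower (median -0.27). Over all 21, 12 differences lay below 0 and 9 above. Gzmb, the granule protease granzyme B, fell from 222.0, 265.3 and 202.8 RPKM to 52.0, 57.5 and 46.4 (-2.12 ± 0.10), and Prf1, the pore-forming perforin, from 11.5, 13.5 and 12.5 to 3.46, 3.02 and 3.16 (-1.68 ± 0.080). With TGF-β alone Gzmb was at 27.6 and 23.2 RPKM and Prf1 at 2.55 and 2.87, and with IL-4 alone Gzmb was at 259.8 and 332.4 and Prf1 at 11.8 and 13.5. Ifng, the Th1 cytokine, fell from 63.1, 71.6 and 60.3 RPKM to 30.4, 30.9 and 25.5 (-1.14 ± 0.086), as did Stat4 and the IL-12 receptor chains Il12rb2 and Il12rb1 (-1.31 ± 0.089, -0.90 ± 0.077 and -0.71 ± 0.053). Fasl, the death ligand, fell by 0.94 on the log2 scale. The Th1 regulator Tbx21 was at 74.7, 79.4 and 82.5 RPKM in control and at 66.5, 67.6 and 61.7 with both and was not called. The members that rose were Ctsw, the chemokine receptor Cxcr3 (1.02 ± 0.062) and Ifngr2, a chain of the interferon-γ receptor (0.65 ± 0.074), whose call was lost without WT TGF-β + IL-4 replicate 3 (0.585).

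Of 14 tested Th17 genes, 8 were called higher and 2 lower (median 0.65). Il6ra, the receptor of IL-6, rose from 6.92, 6.69 and 7.0 RPKM to 18.7, 20.02 and 18.6 (1.35 ± 0.060), and Ccr6, a chemokine receptor of Th17 cells, from 3.19, 2.87 and 3.09 to 9.79, 9.88 and 7.76 (1.32 ± 0.095). The cytokines themselves were low: Il17a was at 1.1, 1.49 and 3.01 RPKM in control and at 1.83, 0.73 and 1.66 with both, and Il22 fell from 3.55, 5.56 and 4.87 to 0.76, 0.6 and 0.53 (-1.78 ± 0.13), a gene whose reads can be shared with its copy Iltifb. Il17f was called higher (0.59 ± 0.12), a call lost without control replicate 1 or 2 or WT TGF-β + IL-4 replicate 2 or 3, when its difference was between 0.471 and 0.603.

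Of 18 tested genes of regulatory T cells, 8 were called higher (44.4%) and 2 lower (11.1%), with a median of 0.51. The lower count was 1 without control replicate 1 or 2 or WT TGF-β + IL-4 replicate 2 or 3, when Ebi3, a subunit of IL-27 and IL-35, lost its call (adjusted p between 0.0141 and 0.0345). Foxp3 went from 5.76, 6.12 and 5.23 RPKM to 31.4, 34.8 and 34.8 (2.37 ± 0.072), was at 61.9 and 57.6 with TGF-β alone, and was at 1.85 and 1.92 with IL-4 alone. No DHS lay within 1000 bp of its start in either list. Ikzf4, a zinc finger factor that partners FOXP3, rose from 3.77, 4.0 and 3.46 to 11.2, 12.3 and 13.0 RPKM (1.47 ± 0.079), and the receptor Gpr83 rose by 0.94 ± 0.081. Tnfrsf9, the costimulatory receptor 4-1BB, fell from 180.2, 185.5 and 177.2 to 89.1, 93.7 and 87.9 RPKM (-0.996 ± 0.046). Il2ra, the α chain of the IL-2 receptor, was at 55.6, 58.3 and 67.6 RPKM and at 67.2, 71.8 and 70.1, Ctla4 at 11.5, 10.4 and 10.5 and at 11.0, 11.5 and 12.4, and neither was called.

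Cytokines and chemokines of activated T cells fell in 9 of 22 tested genes and rose in 3 (median -0.48). Ccl3 and Ccl4, neighbouring chemokine genes that attract leukocytes, fell from 133.2, 139.8 and 136.1 to 30.9, 35.4 and 32.6 RPKM (-2.02 ± 0.057) and from 591.9, 587.9 and 613.2 to 230.6, 231.1 and 204.9 (-1.42 ± 0.058). The haematopoietic growth factors Il3 and Csf2 fell as well, Il3 from 13.6, 12.8 and 10.5 to 1.95, 3.71 and 2.33 RPKM (-1.88 ± 0.16) and Csf2 by 1.01 on the log2 scale. Il2, the T cell growth factor, went from 76.6, 65.7 and 64.9 RPKM to 40.3, 38.5 and 34.5 (-0.85 ± 0.079), against 10.3 and 10.6 with TGF-β alone and 113.3 and 108.7 with IL-4 alone. Csf1, the macrophage growth factor, rose from 0.71, 0.7 and 1.1 to 6.56, 5.16 and 6.24 (1.93 ± 0.11); it was at 12.1 and 9.4 with IL-4 alone and at 0.72 and 0.55 with TGF-β alone. Ccl1, the ligand of CCR8, rose with its receptor, from 80.6, 84.9 and 66.5 to 159.6, 142.7 and 148.5 RPKM (0.96 ± 0.087).

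Homing genes of naïve and memory T cells rose in 5 of 21 tested and fell in 0 (median 0.28). Klf2, a factor of quiescent T cells, was at 2.35, 1.45 and 2.74 RPKM in control and at 6.18, 6.44 and 10.1 with both (1.43 ± 0.19), and its target S1pr1, the receptor for exit from lymph nodes, at 2.24, 2.21 and 3.26 and at 10.1, 10.4 and 14.9 (1.84 ± 0.16). In both genes WT TGF-β + IL-4 replicate 3 was the highest library. Ccr7 was at 814.2, 766.3 and 788.0 RPKM in control and at 542.7, 554.7 and 592.6 with both and was not called. Of 26 tested costimulatory and inhibitory receptors 4 rose and 7 fell (median -0.08), Cd70 most (-1.01 ± 0.14), and Cd200, Cd226 and Cd40lg fell by 0.76, 0.85 and 0.72 on the log2 scale. Of 24 tested immediate early and MAPK feedback genes 4 rose and 1 fell (median -0.21), and 3 fell without control replicate 2. The phosphatase genes Dusp10 and Dusp4 rose from 9.75, 10.0 and 8.62 to 38.9, 40.4 and 41.3 RPKM (1.98 ± 0.066) and from 26.2, 25.9 and 24.7 to 63.1, 68.3 and 60.6 (1.29 ± 0.057), Jun rose by 1.07 ± 0.053, and the nuclear receptor gene Nr4a2 fell (-1.04 ± 0.068).

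Few genes of cell division were called, and nearly all differences were small and below 0. Of 40 tested genes of DNA replication and the G1/S transition, 37 had a difference below 0 and 1, Tk1, was called lower (2.5%, median -0.16). Of 43 mitosis genes 41 had a difference below 0 and 3, Cenpf, Ccnb1 and Aurkb, were called lower (6.98%, median -0.31). With 1 library left out, the number called lower was between 0 (without control replicate 1 or WT TGF-β + IL-4 replicate 3) and 4 (without control replicate 2) for replication, with 2 without WT TGF-β + IL-4 replicate 2. For mitosis it was between 1 (without WT TGF-β + IL-4 replicate 3) and 5 (without WT TGF-β + IL-4 replicate 2). Cenpf, a kinetochore protein, went from 4.81, 4.8 and 5.34 RPKM to 2.92, 2.63 and 2.61. The calls of Tk1, Ccnb1 and Aurkb were lost without WT TGF-β + IL-4 replicate 3 (-0.52, -0.56 and -0.55), and that of Tk1 also without control replicate 1 (-0.57). Pcna, the replication clamp, was at 401.9, 376.0 and 364.9 RPKM and at 348.9, 335.5 and 335.9, and was not called.

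Circadian clock genes rose in 5 of 12 tested and fell in 0 (median 0.53), and 7 further genes were below the level tested. Besides Dbp, those that rose included Npas2 from 1.5, 1.84 and 1.83 to 6.75, 6.71 and 6.56 RPKM (1.497 ± 0.078) and its relative Arntl from 3.93, 3.68 and 4.36 to 6.83, 7.08 and 8.31 (0.75 ± 0.089), partners in the activating arm of the clock, and Nr1d2, a repressor (0.63 ± 0.087), whose call was lost without replicate 2 of both cultures (0.55) and under quantile normalization (0.49). The period and cryptochrome genes Per1, Cry1 and Cry2 had differences of 0.025, -0.001 and 0.086.

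Of 29 tested genes of glycolysis and hypoxia 2 rose and 2 fell (6.9% each, median -0.18), the rises near the share over all genes. The falls were Ankrd37, a hypoxia-induced gene whose call was lost without control replicate 1 or 2 or WT TGF-β + IL-4 replicate 3 (-0.54 to -0.56), and hexokinase 2, Hk2, from 15.3, 17.6 and 15.2 to 8.73, 9.05 and 8.19 RPKM (-0.82 ± 0.074). Of 30 sterol and fatty acid synthesis genes 3 rose and 0 fell (median 0.02): the desaturases Scd2 and Scd1 (1.21 ± 0.072 and 0.93 ± 0.096) and the sterol reductase Tm7sf2 (0.93 ± 0.10). Of 26 interferon-stimulated genes 3 were called higher (11.5%) and 4 lower (15.4%), with a median of 0.10. Without WT TGF-β + IL-4 replicate 3 only 1 was called higher, as Ifit3 (adjusted p = 0.0105) and Oasl2 (0.56 on the log2 scale) lost their calls. Stat2 rose from 2.17, 2.35 and 2.13 to 5.17, 5.11 and 6.47 RPKM (1.03 ± 0.093) and the RNA sensor Ifih1 fell from 5.31, 5.12 and 5.68 to 2.09, 2.22 and 2.26 (-0.997 ± 0.073). None of 31 ribosomal and respiratory chain genes was called by limma in either direction (median 0.07).

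**Figure D5:**
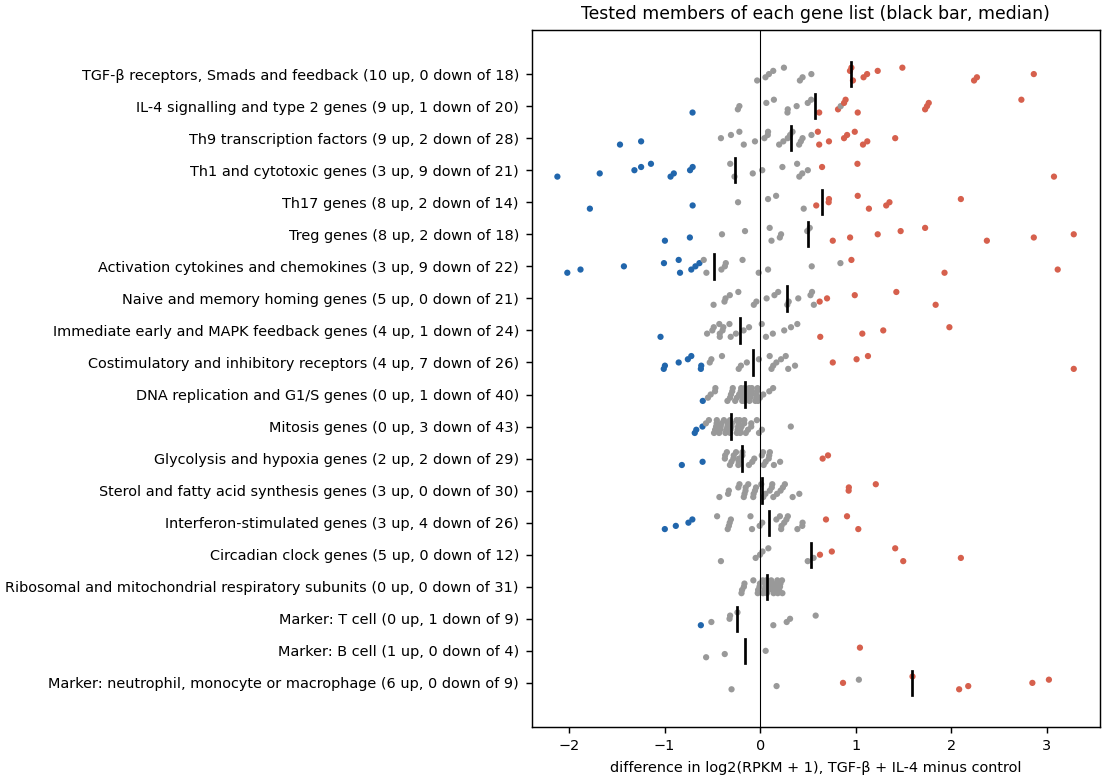
Each point is a tested gene of a list, placed by its difference in log2(RPKM + 1) between WT TGF-β + IL-4 and WT control, red when called higher, blue when called lower and grey otherwise, with the median as a black bar. The median of 0.95 for the TGF-β list covers its 18 tested members only, and the replication and mitosis lists lie close to and below 0.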

How the data were processed

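RNA-seq of 6 WT libraries, 3 of WT control and 3 of WT TGF-β + IL-4, was used, with the identified libraries of TGF-β or IL-4 alone as reference values; the libraries of mice without Tgfbr1 were not used here. Per the labels and the study's methods, the authors made pre-amplified cDNA libraries, mapped reads to mm9 with Bowtie2, removed low-quality and redundant reads and deposited RPKM per gene. The deposited DNase-seq peak lists, called by the authors with MACS2 on 1 library per condition, give the fold enrichment over background and the −log10 q of each peak. Software versions are not given in the sources used here, and strand was not stated, so reads of overlapping or antisense genes cannot be told apart.

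Columns were assigned by library-number order, since the headings conflict with the read counts the study lists for these libraries. Differences of log2(RPKM + 1) over 9816 of 24089 genes, those with a mean RPKM of at least 1, were tested two-sided with limma 3.58.1 (R 4.3.3), using a variance trend with level, with calls at a Benjamini-Hochberg adjusted p below 0.01 together with a change above 1.5-fold. The fit was tested on simulated data. The read depth behind the RPKM values and the DHSs is unknown beyond the relative depths given, so no counting interval was possible for a gene. Gene starts came from GENCODE vM1 (mm9), and 750 tested genes without a match were left out of the DHS counts. Named genes were the 15 largest rises and falls among called genes with a gene name and no overlap, called or defining members of the gene lists, and the genes the study is about. The comparison, members and lists were chosen with earlier results of these data known, and a gene may belong to more than 1 list. Alternatives were other pseudocounts, filters, scalings, thresholds, fits and columns, a replicate block, and leaving out libraries. Some called members of the lists are counted but not reported here by name.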

Additional observations from a re-analysis of the deposited data

How the results depend on the processing

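Taken as headed, the columns gave 0 genes called higher and 0 lower, and each of the 127 called genes followed by name lost its call. With a mean RPKM of at least 5 as the filter, which leaves fewer genes to test, 368 genes were called higher. Under all other alternatives both counts stayed within 1.5 times of the 631 and 279 reported, and the higher share of calls was 61.3% to 72.3%. Leaving out libraries gave 600 to 661 genes higher and 252 to 363 lower. Of the 127 genes, 25 lost their call under at least 1 of the 18 alternatives other than the headings, and none reversed. Of the 90 that were tested under all 18, 76 kept their call throughout; the other 37 were not tested under at least 1. The labels do not say that a replicate number marks one mouse, and deviations of same-numbered libraries correlated at 0.038, 0.049 and 0.122; with the replicate number as a block, 634 genes were called higher and 298 lower. The share of genes that rose with a start DHS in the WT control list only was 5.49% when the start had to lie inside a DHS and 5.32% at a −log10 q of at least 5, against 3.49%. The share of genes that fell with one in the WT TGF-β + IL-4 list only was 0.386% at that q, against 1.16%; the cause was not tested. The read depth is unknown.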

Other observations

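Genes of class II antigen presentation, a list added after values were seen, were called higher in 4 of 8 tested and lower in 0 (median difference 1.07). H2-DMa, given above among the largest rises, is a called member, so the list is not independent of the values. The 4 of 8 and the median therefore cannot speak for class II genes as a set. H2-DMb2, a peptide-loading chain with the close copy H2-DMb1, was at 7.31, 9.24 and 7.14 RPKM in WT control and at 38.1, 22.1 and 28.1 in WT TGF-β + IL-4, and H2-Oa, which restrains that loading, at 2.57, 2.28 and 1.33 and at 7.76, 6.59 and 7.1. The class II chain H2-Aa overlapped between cultures, at 24.3, 33.0 and 18.2 RPKM and at 62.1, 28.5 and 39.1, and so did the invariant chain Cd74. B cell markers summed to 22.1, 25.0 and 15.7 RPKM in control replicates 1 to 3 and to 36.0, 16.65 and 26.9 with both cytokines. Of 4 tested B cell markers 1, Cd79b, was called higher, a call lost under 4 alternatives. The part of B cells in the result was not tested.

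Of 14 genes known from alternatively activated macrophages, also listed after values were seen, 6 were tested and 8 lay below the filter. The 4 called higher were Chil3, its close copy Chil4, Ccl17 and Ccl24. The filter is a mean over both cultures, so a gene near 0 in control was tested only where the cytokine libraries were high. The 4 of 6 and the median of 1.89 therefore cannot speak for the list. Ccl24, a ligand of CCR3, was at 0.74, 1.05 and 0.09 RPKM in control and at 7.52, 5.31 and 4.55 with both. Retnla, Arg1 and Mrc1, other genes of such macrophages, stayed under 0.2 RPKM in all 6 libraries. Among the neutrophil genes, Elane was at 0.13, 0.71 and 0 RPKM and at 7.26, 4.02 and 3.32, and Ngp at 0.23, 1.16 and 2.22 and at 7.63, 9.13 and 6.44.

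Hba-a1, a globin of red cells, was at 9.97, 21.9 and 0 RPKM in control and was listed at 0 in all 3 libraries with both cytokines.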
